A study of Caenorhabditis elegans with 8 samples.

Results

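A set of 8 genes that build the eggshell of Caenorhabditis elegans were followed in RNA from sorted cells of L4 larvae. They are perm-2, perm-4, cbd-1, cpg-1, cpg-2, egg-1, egg-3 and chs-1, chosen by name from the vitelline layer, the chitin layer, the proteoglycan layer and the permeability barrier. All 8 were found among the 46928 gene rows of each library, and all 8 passed the filter on low counts with 12726 other genes. The libraries came from wild type (N2, 4 libraries) and from skn-1gf(lax188) (4 libraries), a gain-of-function allele of the transcription factor gene skn-1, which activates detoxification genes. Animals of both genotypes carried daf-7p::gfp, in which the promoter of the TGF-beta ligand gene daf-7 marks the ASI chemosensory neurons. The allele is carried by the whole animal, the age is given only as synchronised L4, and each library came from a large pooled population whose cells were dissociated with detergent, reductant and Pronase before sorting. The labels call the libraries biological replicates without naming separate cultures, so the p-values measure the spread between these libraries, which may in part be technical.

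The nematode eggshell is a layered coat that is put together around the zygote right after fertilization. The outermost vitelline layer is present on the oocyte, a chitin layer forms beneath it when chitin synthase is activated, and a chondroitin proteoglycan layer follows when cortical granules release their cargo. A lipid-rich permeability barrier closes the embryo off from small molecules. Most of the components are made in advance by the germline and loaded into the growing oocyte, so their transcripts are typical of oogenesis and not of neurons.

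Gene counts per library ran from 2976889 to 10740970, and no gene of the 12734 tested passed an adjusted p of 0.05 in edgeR's quasi-likelihood test (0% called). An unadjusted p under 0.05 was reached by 518 genes in edgeR (4.07%). On the same genes limma-voom called 0. DESeq2, run on the 24642 genes without the low-count filter, gave an adjusted p to 12906 of them and called 4 (0.031% of those it adjusted). Wild-type replicate 2 stood apart, with 32.8% of its counts from ribosomal RNA genes against 6.91 to 21.8% in the other libraries and with the fewest genes detected (11909). The labelled cell type is neuron, yet the ASI markers were low. Of 7 listed, 4 passed the filter, and these together, in CPM (counts scaled to a common library total after TMM normalisation), reached 10.3 to 19.7 in wild type and 10.5 to 166 in skn-1gf, while the chemoreceptor and G protein genes str-2, str-3 and gpa-5 fell short of it. Summed over 15 oocyte markers, levels were 3168 to 4635 CPM in wild type and 2871 to 5053 CPM in skn-1gf. Over 7 pan-neuronal markers they were 259 to 1079 CPM in wild type and 176 to 1204 CPM in skn-1gf. Over 5 body wall muscle markers they were 7763 to 17540 CPM in wild type and 4961 to 22536 CPM in skn-1gf. In such mixed material, more cells of a type and more RNA per cell cannot be told apart.

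The eggshell genes fell into 2 patterns. The vitelline layer genes perm-2 and perm-4 had means 3.80-fold and 3.85-fold higher in skn-1gf than in wild type, with a wide spread, and neither passed the test over all genes. The other 6 differed little between the genotypes, with fitted ratios from 0.916 for egg-1 to 1.18 for chs-1. None of the 8 passed an adjusted p of 0.05 (0% of all genes did), and 2 of the 8, perm-2 and perm-4, had an unadjusted p under 0.05, against 1.44% of all genes with such a p and a higher level. In none of the 8 were the genotypes separated without overlap, as was the case for 2.17% of all genes. The log2 fold change was above 0 for 5 of the 8, against 53.7% of all genes, with a median of 0.04, which was also the median of all genes tested (0.04). Members were chosen with earlier results known, so the counts describe these genes and carry no test of the group.

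**Figure D1:**
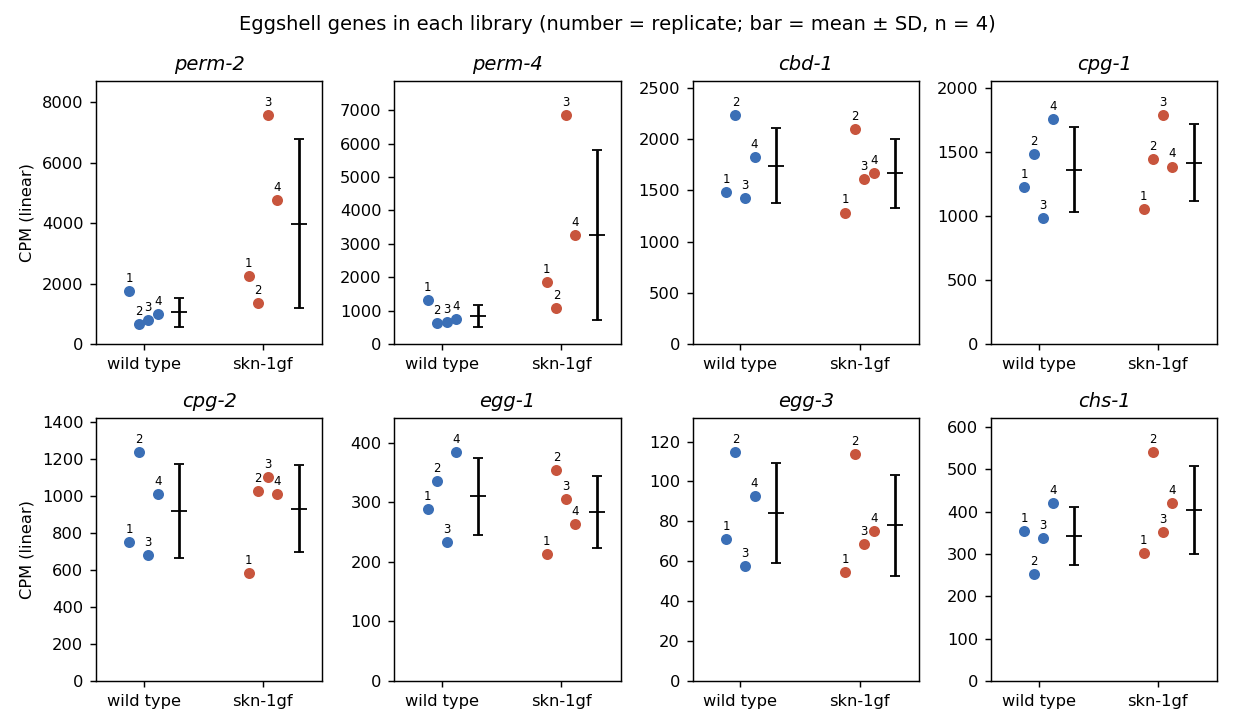
CPM (linear axis) of each eggshell gene in every library, with wild type in blue and skn-1gf in red, replicate numbers beside the points and the mean ± SD (n = 4) as a bar. The skn-1gf points of perm-2 and perm-4 spread upwards to 7561 and 6842 CPM in replicate 3, while the points of the other 6 genes overlap throughout.

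The gene perm-2 (CELE_C44B12.1) encodes a secreted protein of the vitelline layer whose loss leaves embryos permeable. Wild-type libraries 1 to 4, numbered by replicate, held it at 1748, 669, 798 and 984 CPM, and skn-1gf libraries 1 to 4 held it at 2267, 1365, 7561 and 4749.6 CPM (1049.5 ± 483 against 3985 ± 2780 CPM, SD, n = 4). Replicates 3 and 4 of skn-1gf were the high ones, and these had the lowest gene counts of all libraries (3622318 and 2976889). What part depth or library quality had in this was not tested. For perm-2 the genotypes overlapped only through skn-1gf replicate 2, which lay below wild-type replicate 1 and above the other 3 wild-type libraries. Its fitted change was 1.92 on the log2 scale (SE 0.56, 95% interval 0.71 to 3.13), with an unadjusted p of 0.00459 and an adjusted p of 0.999989 in edgeR. Leaving out skn-1gf replicate 3 gave 1.43, and leaving out wild-type replicate 2, the library that stood apart, gave 1.75.

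For perm-4 (CELE_C44B12.5), which encodes another vitelline layer protein needed for the barrier, the picture was nearly the same. Wild-type libraries 1 to 4 held 1328, 643, 661 and 761 CPM, and skn-1gf libraries 1 to 4 held 1851, 1084, 6842 and 3279 CPM (848 ± 324 against 3264 ± 2553 CPM, SD, n = 4). The order of the libraries was that of perm-2, and the overlap again came from skn-1gf replicate 2 against wild-type replicate 1. The fit gave a log2 fold change of 1.94 (SE 0.55, 95% interval 0.75 to 3.14), with an unadjusted p of 0.00402 and an adjusted p of 0.999989 in edgeR, and it was 1.30 on leaving out skn-1gf replicate 3 and 1.81 on leaving out wild-type replicate 2. DESeq2, where both the tool and the filter differed, gave both genes an adjusted p of 0.142. Both passed in edgeR when no low-count filter was applied, with adjusted p of 0.000843 for perm-2 and 0.000552 for perm-4, a setting in which 159 of 24642 genes were called (0.645%).

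Within each library the transcripts of perm-2 and perm-4 kept close to a fixed proportion. The ratio of their counts was 1.32, 1.04, 1.21 and 1.29 across wild-type libraries 1 to 4, and 1.22, 1.26, 1.11 and 1.45 across skn-1gf libraries 1 to 4. It thus varied by 1.39-fold from the lowest to the highest library, while perm-2 itself varied by 11.3-fold and perm-4 by 10.6-fold. In the annotation of assembly WBcel235 both genes lie on chromosome IV with no protein-coding gene between them, perm-4 on the minus strand and perm-2 on the plus strand, so that they are transcribed away from each other. The files follow another build (ce10), so that no coordinates are given. At its other end perm-2 overlaps C44B12.6 on the opposite strand, which had 0 to 36 counts per library against 4232 to 25912 for perm-2. The strand setting of the counting is not given in the sources used here, so reads of the overlap cannot be assigned to a strand.

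The vitelline layer also contains CBD-1, a protein with chitin-binding domains that organises this layer together with PERM-2 and PERM-4. Its gene cbd-1 (CELE_H02I12.1) had 1487, 2229.5, 1427 and 1821 CPM across wild-type libraries 1 to 4, and 1283, 2099.9, 1606 and 1668 CPM across skn-1gf libraries 1 to 4. The genotypes overlapped fully, at 1741 ± 369 and 1664 ± 336 CPM (SD, n = 4). A log2 fold change of −0.07 was fitted (SE 0.33, 95% interval −0.78 to 0.65, adjusted p = 0.999989 in edgeR). An interval of this width leaves room for a change of either sign, and the value turned positive on leaving out wild-type replicate 2 (0.07) or, separately, skn-1gf replicate 1 (0.09).

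Set against cbd-1 in the same library, perm-2 counts were 1.18, 0.300, 0.559 and 0.540 times those of cbd-1 across wild-type libraries 1 to 4. Across skn-1gf libraries 1 to 4 the proportion was 1.77, 0.650, 4.71 and 2.85. For perm-4 it was 0.893, 0.289, 0.464 and 0.418 in wild type and 1.44, 0.516, 4.26 and 1.97 in skn-1gf. These ratios do not depend on the scaling of the libraries, and again only skn-1gf replicate 2 lay within the wild-type range. The difference of the mean log2 ratio was 1.79 for perm-2 and 1.74 for perm-4, higher in 3 of 4 skn-1gf libraries than in any wild-type library. This did not exceed the spread between libraries (p = 0.0571 for each in an exact permutation test, two-sided, and 0.0571 after Benjamini-Hochberg adjustment over the 2 ratios, where the smallest p the design allows is 0.0286). Only these 2 of the ratios computed were tested, and they were chosen with earlier results known, so the p-values do not allow for that choice. They share cbd-1, and perm-2 and perm-4 kept a nearly fixed proportion, so they are not independent results.

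**Figure D2:**
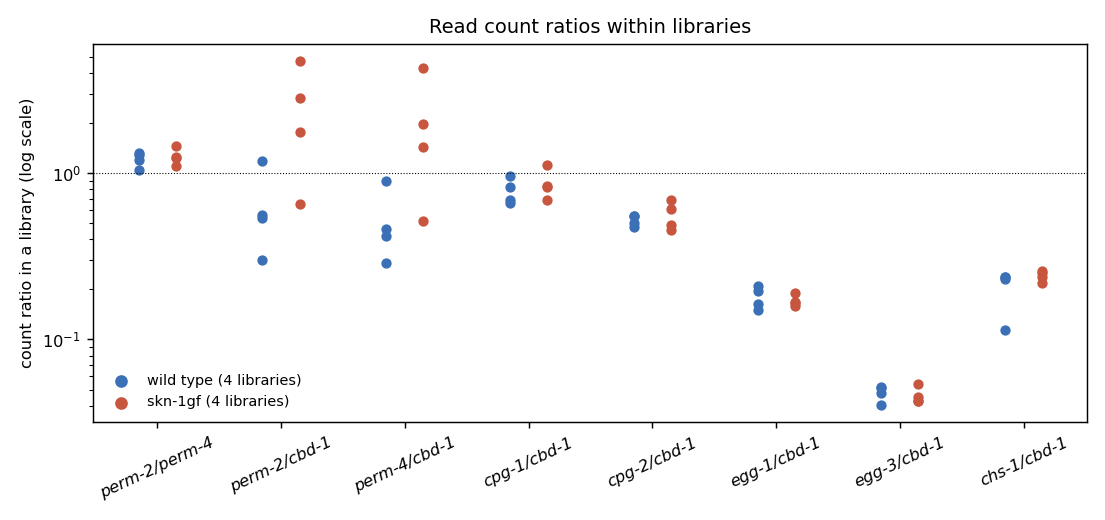
Count ratios within each library on a log axis, wild type in blue and skn-1gf in red, 1 point per library. The perm-2/perm-4 ratio stays between 1.04 and 1.45, the perm ratios to cbd-1 run from 0.289 to 4.71, and the ratios of the other genes to cbd-1 overlap between genotypes.

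The proteoglycan layer is built from CPG-1 and CPG-2, secreted proteins that carry chondroitin chains and bind chitin, and that are jointly required for the permeability barrier. For cpg-1 (CELE_C07G2.1) the levels were 1228, 1481, 983 and 1754 CPM across wild-type libraries 1 to 4, and 1051, 1446, 1785 and 1386 CPM across skn-1gf libraries 1 to 4. For cpg-2 (CELE_B0280.5) they were 749.8, 1237, 679 and 1009.5 CPM for wild type, against 585, 1025, 1101 and 1012 CPM for skn-1gf. Both genes overlapped between the genotypes, and wild-type replicate 3 and skn-1gf replicate 1 were the lowest of their groups in both. Fitted log2 fold changes were 0.06 (SE 0.33, 95% interval −0.66 to 0.77) for cpg-1 and 0.02 (SE 0.33, 95% interval −0.70 to 0.73) for cpg-2, with an adjusted p of 0.999989 in edgeR for each. With scaling to total counts these values were −0.06 and −0.04. The ratio of cpg-1 to cpg-2 counts stayed between 1.20 and 1.80 over the 8 libraries.

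Chitin itself is made by CHS-1, the chitin synthase of the oocyte, which EGG-3, a catalytically inactive phosphatase-like protein, holds at the cortex. Wild-type libraries 1 to 4 held chs-1 (CELE_T25G3.2) at 353, 254, 339 and 421 CPM, and skn-1gf libraries 1 to 4 held it at 303, 541, 352 and 421 CPM. Its lowest library was wild-type replicate 2 and its highest skn-1gf replicate 2, with the other 6 between 303 and 421 CPM. The log2 fold change of chs-1 was 0.24 (SE 0.28, 95% interval −0.38 to 0.86, adjusted p = 0.999989 in edgeR), and −0.06 with both libraries numbered 2 left out. Part of chs-1 overlaps T25G3.3 on the same strand, which had 313 to 2098 counts per library, so reads of the shared part may have gone unassigned.

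EGG-3 transcripts had the lowest mean of the group, also per exon length. Across wild-type libraries 1 to 4, egg-3 (CELE_F44F4.2) had 71.2, 114.8, 57.5 and 92.6 CPM, and across skn-1gf libraries 1 to 4 it had 54.5, 113.9, 68.6 and 75.2 CPM. Its counts ran from 201 to 1144 per library, so that counting error is small beside the spread between libraries. The highest library was replicate 2 in both genotypes. The log2 fold change was −0.11 (SE 0.32, 95% interval −0.81 to 0.60, adjusted p = 0.999989 in edgeR), and it changed sign in 3 of the 8 settings that left out 1 library.

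The oocyte surface protein EGG-1, related to the low-density lipoprotein receptor, acts with its paralog EGG-2 in sperm entry and in eggshell formation. Its gene egg-1 (CELE_B0244.8) had 289, 335, 232 and 384 CPM across wild-type libraries 1 to 4, and across skn-1gf libraries 1 to 4 it had 212, 354, 306 and 264 CPM. The groups overlapped, at 310.0 ± 64.8 and 284 ± 60.4 CPM (SD, n = 4). The log2 fold change was −0.13 (SE 0.27, 95% interval −0.72 to 0.47, adjusted p = 0.999989 in edgeR). It was 0.04 without skn-1gf replicate 1. The paralog egg-2 had means of 146 ± 29.3 and 136 ± 55.9 CPM (log2 fold change −0.10, SE 0.32), and because multiply aligned reads were not assigned, any stretches that the paralogs share are missing from both.

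Per kilobase of exon, a scale on which genes can be compared, perm-2 was the highest of the 8 in every library, with 1426 ± 656 CPM per kb for wild type and 5415 ± 3777 CPM per kb for skn-1gf (SD, n = 4). In wild type the next were perm-4 at 767 ± 293, cpg-1 at 721 ± 176, cpg-2 at 533 ± 148 and cbd-1 at 412 ± 87.4 CPM per kb. Each of these overlapped its neighbour in the order within 1 SD, and perm-4 took place 2 in 2 wild-type libraries, place 3 in 1 and place 4 in 1. The membrane and cortex genes formed the low end, with egg-1 at 173 ± 36.1, chs-1 at 79.6 ± 15.99 and egg-3 at 46.8 ± 14.0 CPM per kb. By the same measure cbd-1 and egg-1 were apart, as were egg-1 and chs-1, and chs-1 and egg-3 changed places in wild-type replicate 2. In skn-1gf the order of the means was the same, with perm-4 at 2951 ± 2308 CPM per kb in place 2 in all 4 libraries and cpg-1 at 750.3 ± 159 CPM per kb in place 3. The coefficient of variation over wild-type libraries was 46.0% for perm-2 and 38.2% for perm-4, and 20.1 to 29.9% for the other 6. Over skn-1gf libraries it was 69.8% and 78.2% for perm-2 and perm-4, and 20.2 to 32.5% for the others.

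**Figure D3:**
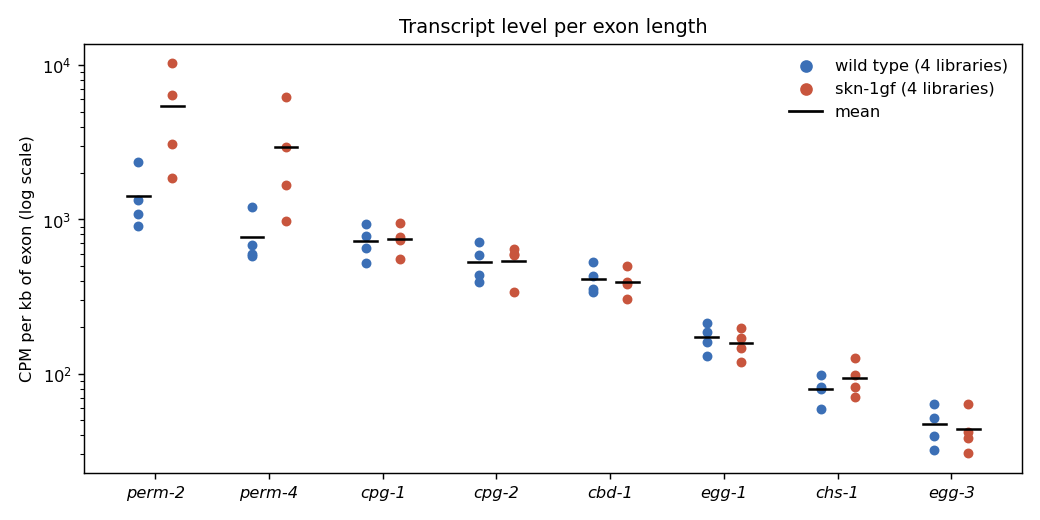
CPM per kilobase of exon on a log axis, genes ordered by their wild-type mean, with 1 point per library (wild type blue, skn-1gf red) and the mean as a black line. The wild-type means run from 1426 for perm-2 to 46.8 for egg-3, and the means of the genotypes are apart in perm-2 and perm-4.

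How alike 2 genes were was measured by the root-mean-square difference of their log2 CPM over the 8 libraries, after each gene was centred on its own mean. It was 0.14 between perm-2 and perm-4, 0.14 between cbd-1 and egg-3, and 0.16 between cbd-1 and egg-1. Within the 6 other genes it reached at most 0.43, between cpg-2 and chs-1. Between either perm gene and any of the other 6 it lay between 1.08 and 1.35. The median over all genes was 1.36 from the shared profile of perm-2 and perm-4 and 0.96 from that of the other 6. Libraries share depth and composition across genes, so the distances are descriptions and not counts of independent results.

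Germline and oocyte markers were nearer in profile to the 6 genes than to the perm pair. The 15 oocyte markers had a median difference of 0.14 from the profile of the 6 and of 1.17 from that of perm-2 and perm-4, and none was nearer to the pair. The 16 early and meiotic germline markers were also all nearer to the 6 (medians 0.35 and 1.39), as were all 30 sperm markers, though at 1.53 from the 6 and 2.47 from the pair. Nearer to the pair were 6 of 6 yolk protein genes, 3 of 4 ASI, 5 of 7 pan-neuronal, 3 of 5 intestine, 4 of 7 gonadal sheath and spermatheca and 1 of 5 body wall muscle markers, against 22.6% of all genes tested. The median distances of these lists from the pair, 0.98 to 1.35, were far above that between perm-2 and perm-4. Among all tested genes other than the 8, the nearest to the 6 were gck-2 (0.07), pqn-59 (0.08), mbf-1 (0.09), puf-5 (0.09), which encodes an oocyte RNA-binding protein, and W04A8.6 (0.09). Nearest to perm-2 and perm-4 were C39D10.7 (0.33), tbh-1 (0.35), fkb-7 (0.38), C17G1.2 (0.39) and sdz-27 (0.40). Of these tbh-1, the tyramine beta-hydroxylase gene known to be expressed in gonadal sheath cells and RIC neurons, had a mean of 144 ± 59.01 CPM over wild-type and 398 ± 236 CPM over skn-1gf libraries (log2 fold change 1.46, SE 0.43). C39D10.7 had means of 759 ± 297 and 2305 ± 1960 CPM, a log2 fold change of 1.60 (SE 0.56). Neither passed the test (adjusted p = 0.999989 in edgeR for both), and both had been picked out by a profile that already differed between the genotypes.

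Marker lists of the gonad and of other tissues are given beside perm-2 and perm-4 as counts and values, since none of their members passed the test over all genes. Markers of the gonadal sheath and spermatheca had 5 of 7 tested members higher and 2 lower in skn-1gf, with a median log2 fold change of 0.64. The sheath gap junction genes inx-8 and inx-9 had the smallest p of that list (log2 fold changes 1.25 and 1.25, SE 0.45 and 0.51, unadjusted p = 0.016 and 0.0309 in edgeR, adjusted p = 0.999989 for both). Wild-type libraries 1 to 4 held inx-8 at 64.2, 64.6, 64.9 and 43.8 CPM, and skn-1gf libraries 1 to 4 held it at 151.9, 35.9, 236 and 141 CPM. As with the perm genes, skn-1gf replicate 3 was the highest and skn-1gf replicate 2 the lowest of its group. Unlike the perm genes, inx-8 in skn-1gf replicate 2 lay below every wild-type library. For inx-9 the levels were 16.5, 28.3, 15.5 and 10.2 CPM in wild type and 49.5, 13.6, 58.4 and 45.7 CPM in skn-1gf. As with the perm genes, only skn-1gf replicate 2 of inx-9 lay within the wild-type range. The same highest and lowest skn-1gf libraries were seen for some markers of other tissues, such as act-4 of muscle, asp-1 of intestine and egl-3 of neurons. For unc-54 of muscle, skn-1gf replicate 2 was the lowest too, but replicate 1 was the highest. In summed CPM, replicate 2 was the lowest skn-1gf library for the yolk (1953), muscle (4961), intestine (125), pan-neuronal (176) and ASI (10.5) lists. It was the highest for the oocyte (5053) and early and meiotic germline (3873) lists, and neither for sperm (917). What part the makeup of this library had in the overlap of the perm genes was not tested. The sheath marker lim-7 was at 9.23 ± 7.40 and 17.2 ± 10.2 CPM, ceh-18 at 27.9 ± 13.2 and 34.5 ± 25.6 CPM, and no marker of the list was at 0 in all libraries. The summed level of the list, most of it from the filamin gene fln-1, ranged from 792 to 1399 CPM in wild type and from 945 to 1224 CPM in skn-1gf. Its part in the result was not tested.

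Yolk protein genes of the adult intestine had all 6 members higher, with a median log2 fold change of 0.78 and none with an unadjusted p under 0.05. Their summed level was 8891, 20816, 4609.8 and 7079 CPM across wild-type libraries 1 to 4, and 26636, 1953, 18895 and 23086 CPM across skn-1gf libraries 1 to 4. The highest and the lowest library were both skn-1gf. Sperm markers had 30 of 30 tested members lower, where 53.7% of all genes had a log2 fold change above 0. An unadjusted p under 0.05 in edgeR was reached by 9 of them, against 2.62% of all genes with such a p and a lower level. Most belong to a single gene family (msp), and multiply aligned reads were not assigned, so they are not independent results. The sum of the sperm markers ranged from 430.3 to 6063 CPM in wild type and from 149 to 1413 CPM in skn-1gf, lowest in skn-1gf replicate 3. Early and meiotic germline markers had 5 of 16 members higher and 11 lower, with a median of −0.16 and sums of 2293 to 3122 and 1841 to 3873 CPM. Oocyte markers had 8 of 15 higher and 7 lower, with a median of 0.09. The 4 tested ASI markers were all higher, with a median of 2.27. Of these, daf-28 (2.40, SE 0.77) and ins-6 (2.94, SE 1.25) had an unadjusted p under 0.05 in edgeR. Body wall muscle had 4 of 5 markers higher (median 0.49), intestine 4 of 5 (0.72) and neurons in general 5 of 7 (0.36). In these 3 lists only act-4 of muscle (1.21, SE 0.52) had such a p, against 1.44% of all genes with such a p and a higher level. The part of these markers in the levels of perm-2 and perm-4 was not tested.

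**Figure D4:**
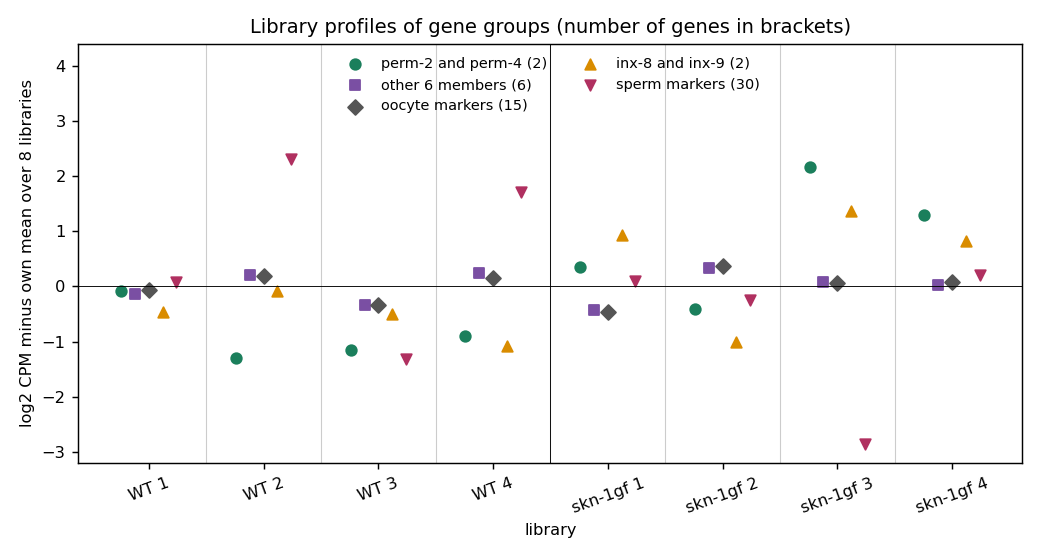
Mean log2 CPM of gene groups in each library, centred on each gene's own mean over the 8 libraries, with the number of genes in brackets. The 6 other eggshell genes and the 15 oocyte markers lie on each other, from −0.47 to 0.38, while perm-2 and perm-4 run from −1.29 in wild-type replicate 2 to 2.16 in skn-1gf replicate 3. Also shown are inx-8 and inx-9, from −1.08 to 1.37, which had the smallest p of the sheath and spermatheca list and do not stand for all of it. The 30 sperm markers run from −2.85 in skn-1gf replicate 3 to 2.32 in wild-type replicate 2.

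A wider list of 40 eggshell, chitin, chondroitin and barrier genes was set beside the 8. Of these, 39 were matched and tested, with 19 higher and 20 lower in skn-1gf, a median log2 fold change of −0.01 and 0 with an adjusted p under 0.05 in edgeR. An unadjusted p under 0.05 was reached by 1 higher and 1 lower gene, against 1.44 and 2.62% of all genes. The higher one was cht-3, a chitinase gene, with 227, 90.3, 226 and 174 CPM across wild-type libraries 1 to 4, and 578, 184, 523 and 343 CPM across skn-1gf libraries 1 to 4 (log2 fold change 1.18, SE 0.40, unadjusted p = 0.0116 and adjusted p = 0.999989 in edgeR). It resembled perm-2 and perm-4 in that only skn-1gf replicate 2 lay within the wild-type range. The lower one was egg-4, a pseudophosphatase gene that acts at the egg-to-embryo transition, at 132 ± 60.6 and 78.7 ± 17.1 CPM (log2 fold change −0.75, SE 0.34, unadjusted p = 0.0448 in edgeR). Its near-identical copy egg-5 had means of 113.6 ± 28.9 and 120.2 ± 18.4 CPM (log2 fold change 0.08, SE 0.27), and since multiply aligned reads were left out both values are uncertain.

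The remaining genes of the wider list are given as values, since none passed the test. The sperm-supplied eggshell factor spe-11, also among the sperm markers, stood at a log2 fold change of −1.40 (SE 0.67), the UDP-glucose dehydrogenase gene sqv-4 at −0.62 (SE 0.35). In the proteoglycan group, cpg-3 had means of 211 ± 45.4 and 169 ± 42.8 CPM (log2 fold change −0.32, SE 0.28). The barrier gene perm-1 was at 103.6 ± 39.7 and 87.3 ± 26.96 CPM and perm-5, which encodes a lipid-binding protein, at 61.5 ± 18.2 and 81.8 ± 14.9 CPM. The log2 fold changes were −0.25 (SE 0.33) for perm-1 and 0.41 (SE 0.31) for perm-5, so that the name perm did not go with the pattern of perm-2 and perm-4. The second chitin synthase gene, chs-2, known from the pharynx, was low at 8.65 ± 3.02 and 8.99 ± 5.80 CPM. Of the 39 genes, 37 were nearer in profile to the 6 other eggshell genes and 2, cht-3 and cav-1, nearer to perm-2 and perm-4, where 22.6% of all genes were nearer to the pair. The gene cav-1, chosen for naming after its values were seen, encodes a caveolin of cortical granules and was at 17.5 ± 9.45 and 26.4 ± 12.03 CPM.

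**Figure D5:**
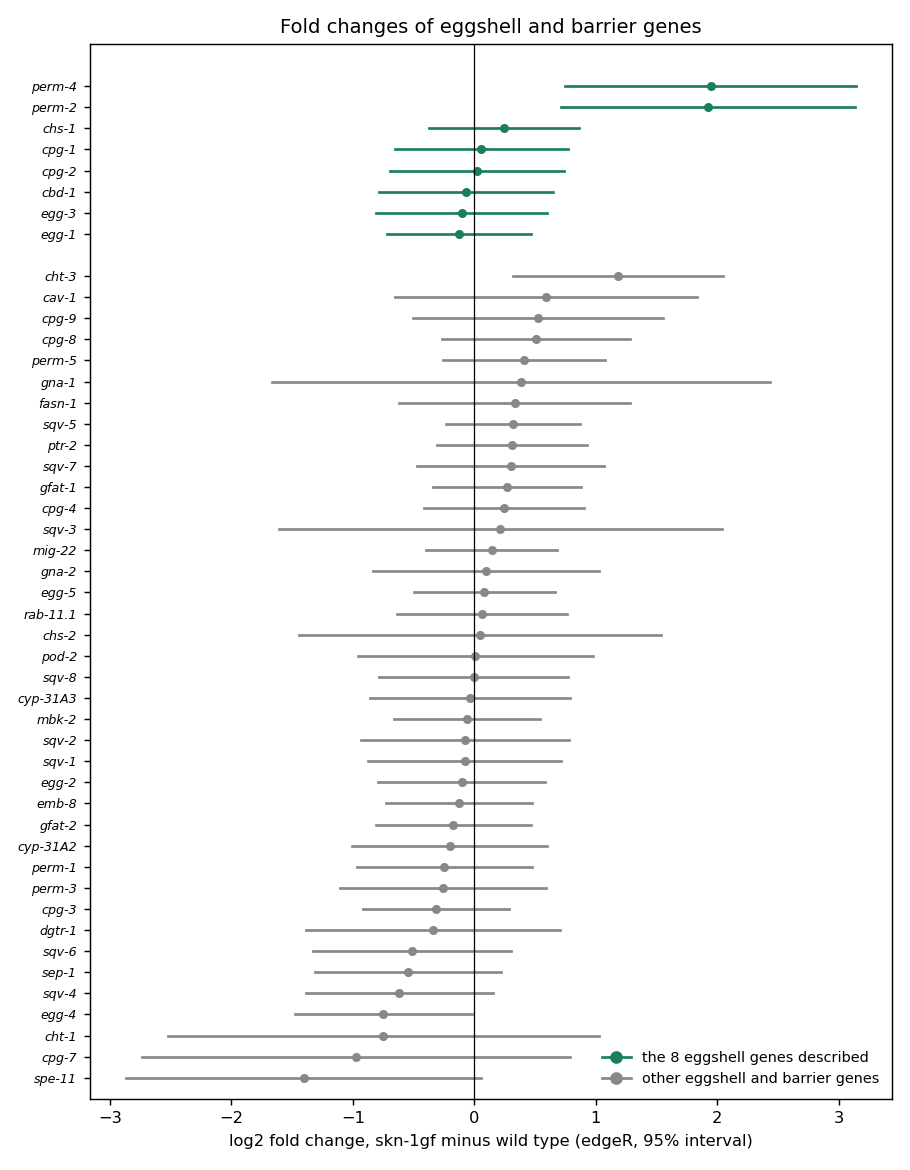
Log2 fold change (skn-1gf minus wild type) with its 95% interval from edgeR for the 8 eggshell genes (green) and 39 other eggshell and barrier genes (grey). The intervals of perm-4, perm-2 and cht-3 lie above 0 and that of egg-4 below 0 before adjustment over all genes.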

How the data were processed

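The authors deposited raw counts of reads for each gene in a separate file for every library. Per the submitters' processing notes the tools were STAR 2.7.6a, HTSeq 2.0.2, DESeq2 and R 3.5.2, with build ce10. The sources used here do not give the annotation release, the strand setting or the handling of duplicates. Of 46928 gene rows, 46919 matched a symbol in a RefSeq table of assembly WBcel235. The 5 summary lines stayed out of library sizes: reads outside any gene made up 2.77 to 14.4% of uniquely aligned reads and ambiguous ones 1.48 to 2.62%. Multiply aligned reads were 12.3 to 30.3% of uniquely and multiply aligned reads together.

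The test was edgeR's quasi-likelihood test (version 4.0.16, R 4.3.3; glmQLFit, glmQLFTest) on genotype alone, with filterByExpr (minimum count 10, minimum total 15), TMM scaling (factors 0.658 to 1.30) and Benjamini-Hochberg adjustment over 12734 genes, threshold 0.05. CPM values are counts over TMM-scaled library sizes, log2 CPM uses a prior count of 2, and exon length is the union of annotated exons in WBcel235. It was checked on simulated data. The biological coefficient of variation, a common value fitted over all genes tested, was 0.707. Alternatives were DESeq2 1.42.0 without the low-count filter, limma-voom (limma 3.58.1), other scalings and filters, protein-coding genes only, a replicate block and libraries left out.

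Members, marker lists and tests were chosen with earlier results of these data known. The naming rule takes all 8 members, from the wider list 7 fixed names and the 4 genes with the smallest p, and the 5 genes nearest to each of 2 profiles. Of the wider list syn-4 was not matched.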

Additional observations from a re-analysis of the deposited data

How the results depend on the processing

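The direction of perm-2 and perm-4 was the same in all 18 alternatives, with log2 fold changes of 1.43 to 2.29 and 1.30 to 2.24, and 1.72 and 1.65 with the replicate block. Adjusted p-values ran from 0.000843 to 0.999938 and from 0.000552 to 0.999938. Without a low-count filter both passed in edgeR (1.88 and 1.90), where 159 genes were called against 0 with the filter. DESeq2 was given the same 24642 genes but adjusted only 12906 of them and called 4, so these counts are not like for like. The cause of the differences was not tested. With total-count scaling cpg-1 was −0.057 and cpg-2 −0.044, so that 3 and not 5 of the 8 had a higher level in skn-1gf, and chs-1 was −0.057 with both libraries numbered 2 left out. With single libraries left out, log2 fold changes ran from −0.20 to 0.088 for cbd-1, −0.070 to 0.22 for cpg-1, −0.10 to 0.23 for cpg-2, −0.26 to 0.035 for egg-1, −0.36 to 0.089 for egg-3 and 0.058 to 0.39 for chs-1, and the number of the 8 that were higher from 3 to 8. The replicate block changed no call and left 0 genes called. Same-numbered libraries deviated together in replicate 3 (correlation 0.51) and not in the others (−0.01 to 0.06), so the numbers were not taken to pair the libraries. Among the wild-type libraries, only replicate 3 correlated best with the skn-1gf library of its own number.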
